A study of Mus musculus with 86 samples.

Results

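Trem2, Tyrobp, Gpnmb, Cd9, Fabp5, Lgals3 and Lpl are 7 genes known as markers of lipid-associated macrophages, which are also called scar-associated macrophages in fibrotic organs. They were taken by symbol and Ensembl identifier from the tables of all genes, as 7 of 31054 genes in the gene count files and 7 of 38277 genes in the tables of FPKM (fragments per kilobase of transcript, scaled to sequencing depth). These macrophages arise from recruited monocytes that take up lipid and debris in injured or fat-laden tissue, and TREM2, a surface receptor for lipids and lipoproteins, signals through the adaptor DAP12, the product of Tyrobp. The remaining members encode membrane proteins, lipid carriers and enzymes, and a galectin that such macrophages carry at high level. Most of these genes are also used by other cells: Lpl in fat, muscle and kidney, Fabp5 in endothelium and epithelium, and Cd9 and Lgals3 in many epithelia.

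The series asks what loss or inhibition of MERTK, a receptor tyrosine kinase with which macrophages engulf dying cells, does in mouse models of organ fibrosis, read by RNA sequencing of whole tissue. In the knockout experiment, mice labelled Mertk knockout (KO) and wild type (WT) underwent unilateral ureteral obstruction (UUO) of the kidney, bile duct ligation (BDL) of the liver, or a sham procedure. KO and WT each had 4 UUO, 4 kidney sham, 4 BDL and 4 liver sham libraries, and 1 UUO and 1 kidney sham library, both WT, were left out here for the reason given below. In the inhibitor experiment, injured or sham mice received UNC569, a small-molecule MERTK inhibitor, or its vehicle dimethyl sulfoxide (DMSO). The kidney table had 7 UNC569 UUO, 4 DMSO UUO, 3 UNC569 sham and 3 DMSO sham libraries. The liver table had 4 UNC569 BDL, 6 DMSO BDL, 3 UNC569 sham and 3 DMSO sham libraries. The lung table had 6 UNC569 and 6 DMSO libraries after bleomycin (Bleo), and 3 UNC569 sham and 3 DMSO sham libraries. The labels used here give no age, strain, dose, time after injury or knockout allele. The protocol calls the libraries of a condition biological replicates but does not say whether each came from its own animal, so the p-values measure the spread between these libraries.

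Count libraries held 7216322 to 28451863 reads in genes in kidney and 14500094 to 23352846 in liver. The depth behind the FPKM tables is unknown. Mertk, the targeted gene, overlapped between genotypes in the kidney libraries used: it stood at 54.4 to 77.7 CPM (read counts scaled to library size) in KO UUO and 60.8 to 79.6 CPM in WT UUO kidneys, and at 49.9 to 70.4 CPM in KO sham and 45.3 to 65.96 CPM in WT sham kidneys. In liver it was 5.19 to 20.99 CPM in KO BDL and 21.9 to 39.3 CPM in WT BDL, and 11.2 to 20.6 CPM in KO sham and 10.8 to 18.9 CPM in WT sham. Reads outside a deleted part of the gene would still be counted, so this is no test of the deletion; the groups are called KO-labelled and WT-labelled below. The left-out WT-labelled kidney libraries went against their tissue label: in sham library 1 the hepatocyte marker sum was 135334 CPM, and in UUO library 1 the adipocyte marker sum was 21732 CPM. WT-labelled sham kidney library 3 was kept, although its fibroblast marker sum of 5917 CPM stood above the 139 to 298 CPM of the other sham kidneys, and 58.5% of its reads were unmapped.

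Of the receptor and its adaptor, Trem2 (ENSMUSG00000023992) lies on chromosome 17 from 48346401 to 48354147 on the plus strand, in the GRCm38 build. Tyrobp (ENSMUSG00000030579) lies on chromosome 7 from 30413760 to 30417585 on the plus strand, 126 bases from Hcst, which encodes the related adaptor DAP10. Of the membrane proteins, Gpnmb (ENSMUSG00000029816), a glycoprotein of phagocytes and melanocytes found in lysosomes and at the cell surface, lies on chromosome 6 from 49036546 to 49070929 on the plus strand. Cd9 (ENSMUSG00000030342), a tetraspanin, lies on the minus strand of chromosome 6 from 125460266 to 125494791. The annotation places the antisense gene Gm28809 and the transcript Gm26728 on the other strand of the Cd9 locus. Since the libraries were not stranded, strand could not assign reads where these genes and Cd9 share bases. How such reads were counted was not examined. Of the lipid-handling genes, Fabp5 (ENSMUSG00000027533), a cytosolic fatty acid carrier, lies on chromosome 3 from 10012548 to 10016607, and Lpl (ENSMUSG00000015568), the lipase that releases fatty acids from circulating triglyceride, lies on chromosome 8 from 68880491 to 68907448, both on the plus strand. Lgals3 (ENSMUSG00000050335), which encodes galectin-3, a secreted lectin, lies on chromosome 14 from 47367751 to 47386160 on the plus strand. Processed pseudogenes of Cd9 and Fabp5 (Cd9-ps and Fabp5l2) are listed in the FPKM tables but not in the count files, so reads that match a parent gene and its copy could be divided differently in the 2 kinds of file.

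The promoters of Trem2 and Gpnmb are shown because their levels moved together more closely than those of any other pair of members (mean r across the 5 tables of 0.923). The windows run from 250 bases before to 50 bases after the annotated start, 5′ to 3′ along the gene, from RefSeq on GRCm38.p6, at chr17:48346151-48346450 for Trem2 and chr6:49036268-49036567 for Gpnmb, both on the plus strand. Capitals mark matches to TGANTCA, the core that AP-1 factors bind, and, in Trem2, to GAGGAA read on the opposite strand (TTCCTC), the core that the macrophage factor PU.1 binds.
Trem2: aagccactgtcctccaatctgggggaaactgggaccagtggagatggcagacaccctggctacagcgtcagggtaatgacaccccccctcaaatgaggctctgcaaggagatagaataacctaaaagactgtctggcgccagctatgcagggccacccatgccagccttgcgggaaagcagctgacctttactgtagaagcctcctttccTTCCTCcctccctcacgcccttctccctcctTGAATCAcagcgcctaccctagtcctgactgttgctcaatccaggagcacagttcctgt
Gpnmb: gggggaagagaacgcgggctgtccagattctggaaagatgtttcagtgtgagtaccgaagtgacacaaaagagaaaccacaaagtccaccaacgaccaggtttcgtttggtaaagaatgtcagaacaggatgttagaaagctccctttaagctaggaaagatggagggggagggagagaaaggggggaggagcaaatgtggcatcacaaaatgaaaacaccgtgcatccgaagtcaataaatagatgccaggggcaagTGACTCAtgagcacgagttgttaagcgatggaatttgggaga
TGANTCA was found 9 bases before the Trem2 start and at base 9 after the Gpnmb start, and GAGGAA 40 bases before the Trem2 start. On either strand, TGANTCA occurred in 7.8% and GAGGAA in 28.3% of 32851 promoter windows of the same length, and the 2 motifs share no bases. TCATGTG (3.8% of all windows), CACGTG (7.2%) and TATAAA (13.6%) were searched too and were not in the windows of the 4 members in the table, which are Trem2, Gpnmb, Cd9 and Lgals3. A match describes the letters of the window and is no evidence of binding.

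**Figure D1:**
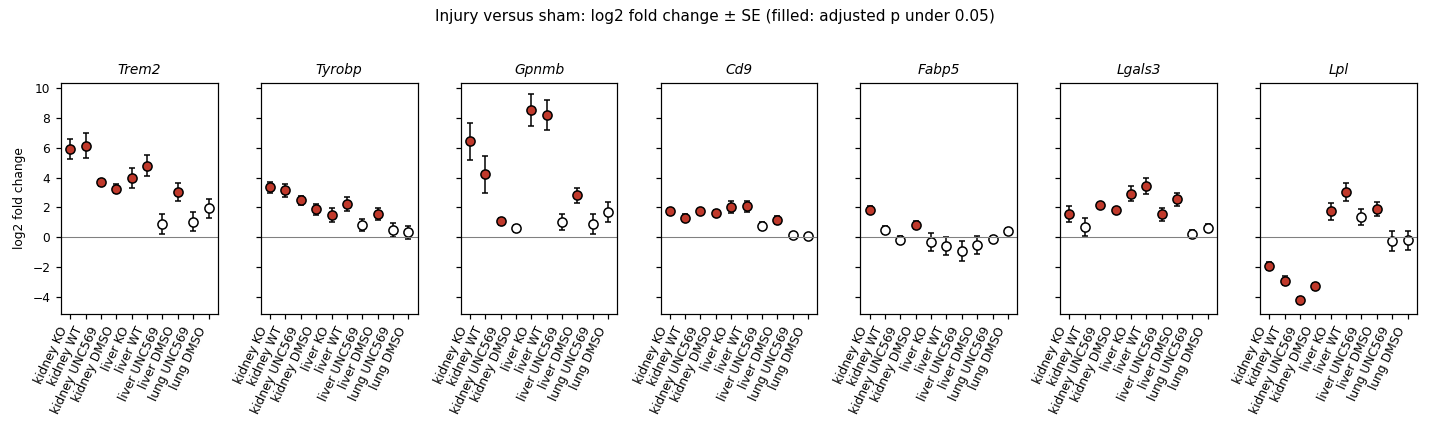
log2 fold change of injured over sham tissue for the 7 genes in each table and arm, with the standard error as bars and filled symbols where the adjusted p was under 0.05. Trem2 was positive in every panel and past the threshold in both arms of both kidney tables and of the liver knockout table, Lpl was below 0 in kidney and above 0 in liver, and no gene passed in lung.

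In obstructed kidneys of the knockout experiment, the receptor, its adaptor and both membrane proteins were higher than in sham kidneys in both genotypes, while Lpl was lower in both. Of the 7 members, 7 in KO-labelled kidneys (background 59.1% of 16395 genes tested) and 5 in WT-labelled kidneys (background 39.3%) passed an adjusted p of 0.05 in edgeR's quasi-likelihood test with Benjamini-Hochberg adjustment over all genes. Backgrounds of this size mean that changed genes were common, and nothing is read from the counts of members against them. The median log2 fold change of the members was 1.86 in KO-labelled and 1.33 in WT-labelled kidneys, beside 0.23 and 0.16 over all genes tested in the same arms.

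Trem2 was at 17.9, 20.4, 17.3 and 14.7 CPM in the KO-labelled UUO kidneys and 0, 0.102, 0.669 and 0.377 CPM in the KO-labelled sham kidneys, where it had 0, 2, 9 and 9 reads. It was at 11.96, 15.7 and 24.3 CPM in the WT-labelled UUO kidneys and 0, 0.644 and 0.247 CPM in the WT-labelled sham kidneys. Every UUO kidney stood far above every sham kidney, and in edgeR Trem2 rose in KO-labelled (log2 5.91 ± 0.67, adjusted p = 7e-06) and WT-labelled kidneys (log2 6.12 ± 0.83, adjusted p = 8.50e-05), where ± gives the standard error here and below. Tyrobp, which carries the signal of TREM2 and of other receptors on myeloid and natural killer cells, averaged 37.5 ± 6.77 CPM in KO-labelled UUO and 3.67 ± 1.61 CPM in KO-labelled sham kidneys (SD, n = 4 each). It averaged 41.4 ± 11.1 CPM in WT-labelled UUO and 4.69 ± 2.36 CPM in WT-labelled sham kidneys (SD, n = 3 each). The groups did not overlap. Tyrobp rose in edgeR in KO-labelled (log2 3.36 ± 0.37, adjusted p = 5.75e-06) and WT-labelled kidneys (log2 3.16 ± 0.43, adjusted p = 8.30e-05).

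Gpnmb varied more between libraries than Trem2, at 38.3, 46.6, 15.2 and 6.18 CPM in KO-labelled UUO and 0.204 to 0.372 CPM in KO-labelled sham kidneys. In WT-labelled kidneys it was at 14.9, 8.17 and 90.2 CPM after UUO (libraries 2, 3 and 4) and 0, 6.76 and 0.329 CPM after sham (libraries 2, 3 and 4). Sham library 3 lay just under the lowest WT-labelled UUO value, and the UUO and sham groups of each genotype did not overlap. Gpnmb rose in KO-labelled kidneys (edgeR, log2 6.44 ± 1.24, adjusted p = 0.000526) and in WT-labelled kidneys (log2 4.22 ± 1.25, adjusted p = 0.0156). The WT-labelled result rested on single libraries: it was log2 2.47 ± 1.15, adjusted p = 0.127 without UUO library 4, and log2 7.69 ± 1.503, adjusted p = 0.00124 without sham library 3. With the replicate number as a block it was log2 4.34 (adjusted p = 0.0592). Cd9 rose less, to 262 ± 41.8 CPM in KO-labelled UUO kidneys, against 78.7 ± 4.13 CPM in KO-labelled sham kidneys (SD, n = 4 each; edgeR, log2 1.74 ± 0.21, adjusted p = 1.07e-05). In WT-labelled kidneys Cd9 rose to 251 ± 60.2 CPM after UUO, against 100.1 ± 33.2 CPM after sham (SD, n = 3 each; edgeR, log2 1.33 ± 0.24, adjusted p = 0.000612).

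The lipid-handling genes parted. Fabp5 was at 14.1, 14.7, 15.3 and 16.2 CPM in KO-labelled UUO and 3.80, 3.98, 3.27 and 5.49 CPM in KO-labelled sham kidneys, without overlap. It rose there (edgeR, log2 1.86 ± 0.25, adjusted p = 3.09e-05). In WT-labelled kidneys it was at 11.96, 10.5 and 17.2 CPM after UUO and 8.32, 12.7 and 7.25 CPM after sham, where 1 sham library, library 3, lay inside the UUO range (edgeR, log2 0.50 ± 0.28, adjusted p = 0.179). Without that library the groups did not overlap and the difference still missed the threshold (log2 0.66 ± 0.28, adjusted p = 0.0711). Lpl was at 388, 510.3, 425 and 395 CPM in KO-labelled UUO and 1586, 1413, 1408 and 2052 CPM in KO-labelled sham kidneys. It was at 323, 194 and 334 CPM in WT-labelled UUO and 2494, 1374 and 2402 CPM in WT-labelled sham kidneys. Every UUO kidney lay below every sham kidney. Lpl fell in edgeR in KO-labelled (log2 -1.91 ± 0.25, adjusted p = 2.42e-05) and WT-labelled kidneys (log2 -2.88 ± 0.30, adjusted p = 1.46e-05). With the 2 left-out libraries included, the WT-labelled fall of Lpl was log2 -1.01 (adjusted p = 0.287), and the KO-labelled rise of Fabp5 was lost too (adjusted p = 0.138). All 8 genes of the proximal tubule list fell in both arms as well, to summed levels of 690.3 to 3861 CPM in KO-labelled UUO kidneys, against 15514 to 19938 CPM in KO-labelled sham kidneys. The part of the tubule in the fall of Lpl was not tested.

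Lgals3 was at 103, 88.3, 98.4 and 134 CPM in KO-labelled UUO and 30.9, 34.3, 37.6 and 41.6 CPM in KO-labelled sham kidneys. It rose there (edgeR, log2 1.55 ± 0.53, adjusted p = 0.0209). That call was lost when any of KO-labelled sham libraries 1, 2 and 3 or UUO library 4 was left out (adjusted p 0.0503 to 0.0633), with log2 1.37 to 1.45, and with the 2 left-out libraries included (log2 1.39, adjusted p = 0.169). In WT-labelled kidneys Lgals3 was at 134, 173 and 142 CPM after UUO and 15.6, 218 and 41.9 CPM after sham. Sham library 3 lay above all UUO kidneys and the other sham libraries far below them. The WT-labelled difference missed the threshold in edgeR (log2 0.71 ± 0.60, adjusted p = 0.368) and passed it without that library (log2 2.27 ± 0.35, adjusted p = 0.000238).

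**Figure D2:**
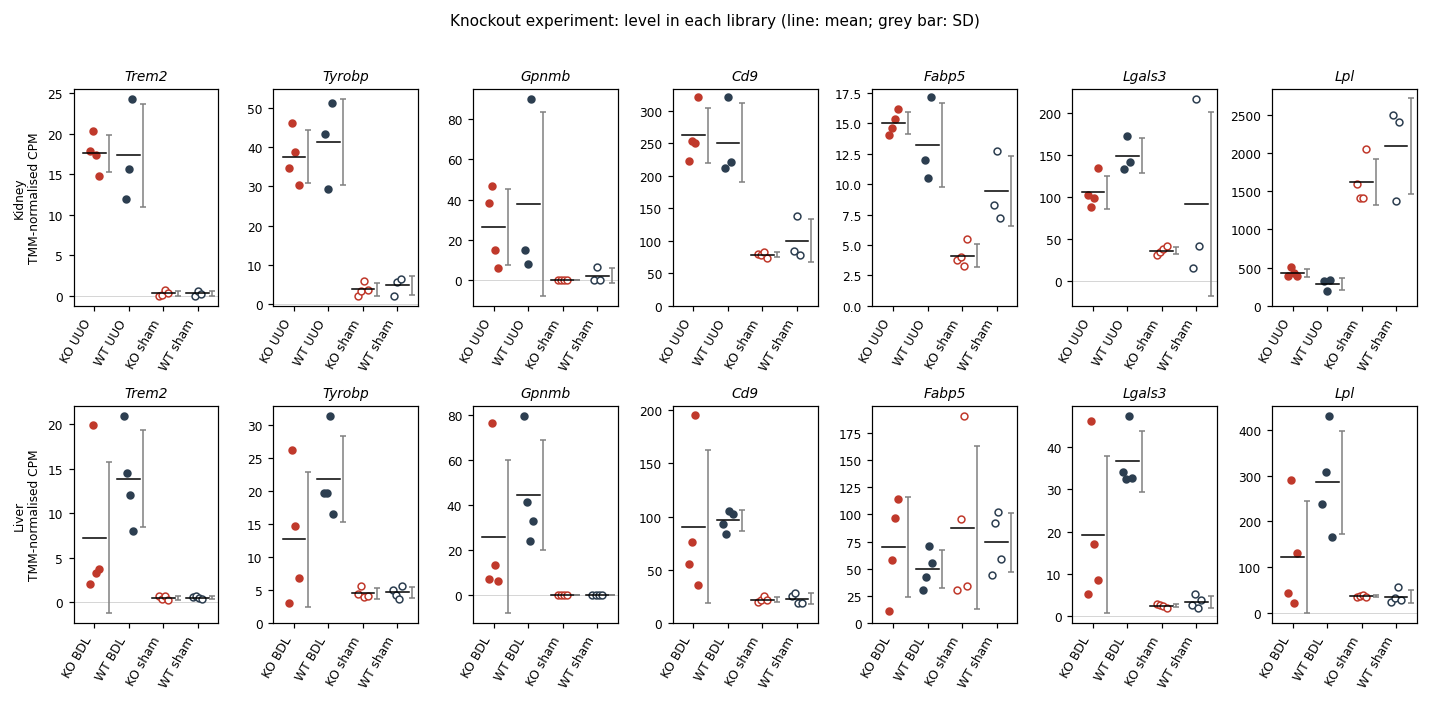
Level of each gene in every library of the knockout experiment (CPM, linear axes that differ between panels), with KO-labelled injured, WT-labelled injured, KO-labelled sham and WT-labelled sham libraries from left to right, lines at the means and bars for the SD. In kidney the UUO libraries lie above the sham libraries for Trem2 and Tyrobp and below them for Lpl; in liver KO-labelled BDL library 2 lies apart from the other KO-labelled BDL libraries for Trem2 and Gpnmb.

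General macrophage genes moved with Trem2 in these kidneys. All 13 genes of the pan-macrophage list were higher after UUO in both arms, and their summed level was 2456 to 3999 CPM in KO-labelled UUO and 82.9 to 175 CPM in KO-labelled sham kidneys. In WT-labelled kidneys the sum was 1735 to 3261 CPM after UUO and 102 to 169 CPM after sham. In whole tissue, more macrophages and more RNA of a gene per macrophage cannot be told apart. Set against that sum, Trem2 was 0.613% to 0.841% in KO-labelled UUO and 0% to 0.346% in KO-labelled sham kidneys, without overlap. It was 0.520 to 1.07% in WT-labelled UUO and 0 to 0.541% in WT-labelled sham kidneys. The overlap came from sham library 3, and the other WT-labelled sham kidneys were at 0% and 0.119%. Gpnmb was higher too in KO-labelled kidneys, at 0.304 to 1.79% after UUO and 0.160 to 0.271% after sham. In WT-labelled kidneys its groups overlapped, at 0.559 to 3.38% after UUO and 0 to 5.68% after sham. Cd9 went the other way, at 7.65 to 15.8% of the sum in KO-labelled UUO and 34.9 to 77.2% in KO-labelled sham kidneys. Lgals3 did so too, at 2.66 to 6.60% and 19.5 to 33.6% in the same groups. In WT-labelled kidneys the Lgals3 groups overlapped, at 5.31 to 11.8% after UUO and 10.9 to 183% after sham. Fabp5 and Lpl were lower after UUO in both genotypes. Tyrobp was lower too, at 1.39 to 1.63% in KO-labelled UUO and 1.71 to 3.15% in KO-labelled sham kidneys, without overlap. In WT-labelled kidneys its groups overlapped, at 1.89 to 2.01% after UUO and 1.40 to 4.74% after sham. In kidneys of the inhibitor experiment the share of Trem2 overlapped between UUO and sham. It was 0.499 to 0.970% in UNC569 UUO and 0 to 1.23% in UNC569 sham kidneys. It was 0.274 to 0.593% in DMSO UUO and 0.0334 to 0.481% in DMSO sham kidneys. The share of Gpnmb was lower in DMSO UUO (0.0207 to 0.0551%) than in DMSO sham kidneys (0.0672 to 0.185%), without overlap. In UNC569 kidneys its groups overlapped, at 0.0278 to 0.0894% after UUO and 0 to 0.0739% after sham. These ratios are descriptions, since the macrophage genes rose themselves.

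The kidney table of the inhibitor experiment gave the same directions for Trem2, Tyrobp, Cd9, Lgals3 and Lpl. With limma on log2(FPKM + 1), where a pseudocount of 1 understates the change of low genes, 6 of 7 members passed in UNC569 kidneys (background 62.1% of 15338 genes) and 6 in DMSO kidneys (background 55.5%). Trem2 was at 11.3 (lowest), 15.02 (median) and 23.2 (highest) FPKM in UNC569 UUO kidneys and 0.0601, 0 and 0.899 FPKM in UNC569 sham kidneys. In DMSO kidneys it was at 14.4, 14.1, 19.4 and 9.49 FPKM after UUO and 0.871, 0.883 and 0.0739 FPKM after sham. No UUO kidney came near a sham kidney. Trem2 rose in limma in UNC569 (log2 3.67 ± 0.26, adjusted p = 2.22e-09) and DMSO kidneys (log2 3.26 ± 0.28, adjusted p = 5.60e-08). Tyrobp rose too, with log2 2.48 ± 0.30, adjusted p = 1.65e-06 in UNC569 and log2 1.87 ± 0.34, adjusted p = 0.00015 in DMSO kidneys in limma.

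Cd9 rose in limma in UNC569 (log2 1.78 ± 0.14, adjusted p = 9.08e-09) and DMSO kidneys (log2 1.65 ± 0.16, adjusted p = 1.41e-07), and Lgals3 likewise in UNC569 (log2 2.19 ± 0.12, adjusted p = 1.26e-10) and DMSO kidneys (log2 1.81 ± 0.13, adjusted p = 8.60e-09). Gpnmb stayed low, at 0.674 (lowest), 0.866 (median) and 2.44 (highest) FPKM in UNC569 UUO and 0.0741, 0 and 0 FPKM in UNC569 sham kidneys. It rose in limma (log2 1.07 ± 0.24, adjusted p = 0.000772). In DMSO kidneys Gpnmb was at 0.580, 0.805, 1.80 and 0.718 FPKM after UUO and 0.336, 0.336 and 0.149 FPKM after sham. Those groups did not overlap, but the difference missed the threshold in limma (log2 0.60 ± 0.26, adjusted p = 0.0615). It passed with a pseudocount of 0.1 (adjusted p = 0.0250), without DMSO UUO library 0 (adjusted p = 0.0484) and without UNC569 UUO library 2 (adjusted p = 0.0388).

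Lpl was at 18.8 (lowest), 26.9 (median) and 41.1 (highest) FPKM in UNC569 UUO kidneys and 587, 477 and 509 FPKM in UNC569 sham kidneys. In DMSO kidneys it was at 33.2, 34.1, 29.9 and 54.8 FPKM after UUO and 478, 304 and 335 FPKM after sham. The fall was wide of any overlap in both arms (limma, UNC569 log2 -4.18 ± 0.23, adjusted p = 1.37e-10; DMSO log2 -3.27 ± 0.25, adjusted p = 1.58e-08). Fabp5 was at 3.52, 3.79, 4.15 and 4.52 FPKM in DMSO UUO and 1.94, 2.44 and 1.22 FPKM in DMSO sham kidneys and rose in limma (log2 0.82 ± 0.28, adjusted p = 0.0185), a call lost without DMSO sham library 2 (log2 0.65 ± 0.31, adjusted p = 0.0973). In UNC569 kidneys Fabp5 did not pass (log2 -0.18 ± 0.25, adjusted p = 0.551). On this scale, per transcript length, every UUO kidney of either arm had at least 102.5 FPKM of Lgals3 and 122 FPKM of Cd9. None had more than 2.44 FPKM of Gpnmb or 4.525 FPKM of Fabp5.

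**Figure D3:**
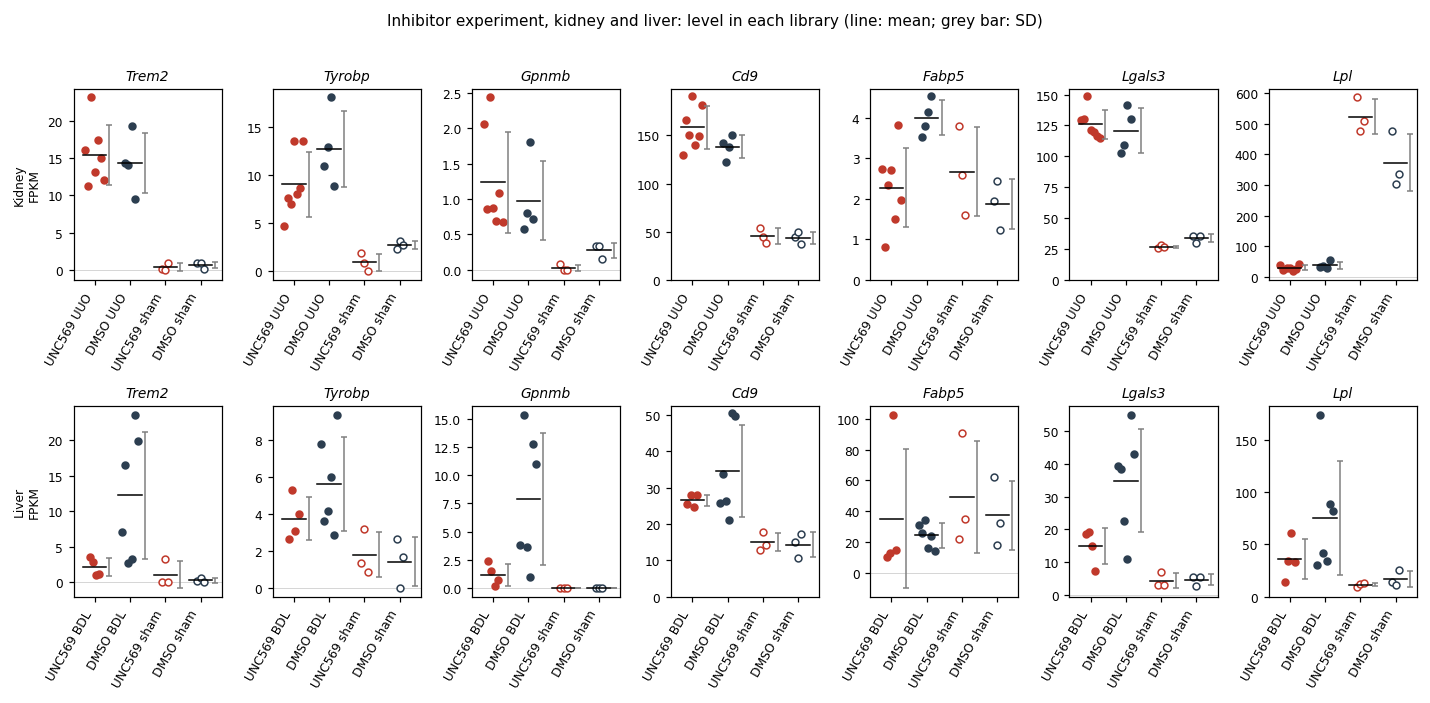
Level of each gene in every kidney and liver library of the inhibitor experiment (FPKM, linear axes that differ between panels), with UNC569 injured, DMSO injured, UNC569 sham and DMSO sham libraries from left to right, lines at the means and bars for the SD. Trem2 and Lgals3 separate injured from sham kidneys without overlap, and in BDL livers the UNC569 values of Trem2 and Gpnmb lie in the lower part of the DMSO range or below it.

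In ligated livers of the knockout experiment every member but Fabp5 was higher than after sham, Lpl included. Of the 7 members, 6 passed in KO-labelled (background 25.1% of 13492 genes) and 6 in WT-labelled livers (background 29.1%) in edgeR, all of them higher, a direction in which 14% of genes passed in KO-labelled and 16.3% in WT-labelled livers. The median log2 fold change of the members was 2.04 in KO-labelled and 3.03 in WT-labelled livers, beside 0.07 and 0.03 over all genes tested in the same arms.

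Trem2 was at 2.03, 19.95, 3.28 and 3.71 CPM in KO-labelled BDL livers and 0.655, 0.364, 0.642 and 0.189 CPM in KO-labelled sham livers. In WT-labelled livers it was at 20.9, 14.5, 12.05 and 7.997 CPM after BDL and 0.529, 0.642, 0.482 and 0.326 CPM after sham. All BDL livers stood above all sham livers, but among the KO-labelled ones library 2 was in the WT-labelled range and the other 3 were well below it. KO-labelled BDL libraries 1 and 3 are among those that the submitters' labels mark for bad read files, here and for the genes below. Trem2 rose in edgeR in KO-labelled (log2 3.95 ± 0.68, adjusted p = 0.00121) and WT-labelled livers (log2 4.79 ± 0.69, adjusted p = 0.000229). Tyrobp was at 3.02, 26.1, 14.6 and 6.79 CPM in KO-labelled BDL and 4.39, 5.64, 3.92 and 4.03 CPM in KO-labelled sham livers. BDL library 1 lay below all of those sham livers, so the groups overlapped. The rise (log2 1.49 ± 0.46, adjusted p = 0.0275 in edgeR) was lost without sham library 1, 3 or 4 or without BDL library 2 or 3 (log2 0.85 to 1.48, adjusted p 0.0564 to 0.116), and with the replicate number as a block (adjusted p = 0.0578). WT-labelled Tyrobp rose to 21.8 ± 6.57 CPM after BDL, against 4.62 ± 0.894 CPM after sham (SD, n = 4 each; edgeR, log2 2.24 ± 0.46, adjusted p = 0.00256).

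Gpnmb, which was close to 0 in sham livers, stood at 7.45, 76.4, 13.7 and 6.28 CPM in KO-labelled BDL livers and had 1, 2, 1 and 0 reads (0 to 0.121 CPM) in the KO-labelled sham livers. It was at 79.5, 41.6, 24.2 and 32.8 CPM in WT-labelled BDL livers and had 1, 6, 2 and 0 reads (0 to 0.385 CPM) in the WT-labelled sham livers. It rose in edgeR in KO-labelled (log2 8.52 ± 1.10, adjusted p = 0.000154) and WT-labelled livers (log2 8.19 ± 1.01, adjusted p = 7.30e-05), where the size of the fitted change depends on the few sham reads. Cd9 was at 55.7, 75.8, 195 and 36.1 CPM in KO-labelled BDL and 20.05, 21.8, 25.2 and 21.3 CPM in KO-labelled sham livers. It averaged 96.3 ± 9.81 CPM in WT-labelled BDL and 22.9 ± 4.89 CPM in WT-labelled sham livers (SD, n = 4 each). It rose in edgeR in KO-labelled (log2 2.04 ± 0.38, adjusted p = 0.00186) and WT-labelled livers (log2 2.07 ± 0.38, adjusted p = 0.00112) without overlap.

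Lgals3 was at 5.36, 46.02, 17.02 and 8.62 CPM in KO-labelled BDL and 3.01, 2.61, 2.38 and 2.08 CPM in KO-labelled sham livers. In WT-labelled livers it was at 34.1, 32.3, 47.3 and 32.6 CPM after BDL and 2.76, 5.26, 1.86 and 3.85 CPM after sham. Neither pair of groups overlapped. Lgals3 rose in edgeR in KO-labelled (log2 2.93 ± 0.53, adjusted p = 0.0016) and WT-labelled livers (log2 3.41 ± 0.53, adjusted p = 0.000403). Lpl, which fell in kidney, was at 239, 308, 431 and 166 CPM in WT-labelled BDL and 23.1, 33.2, 55.7 and 28.3 CPM in WT-labelled sham livers. It rose in edgeR (log2 3.03 ± 0.60, adjusted p = 0.00199). In KO-labelled livers Lpl was at 43.4, 291, 21.02 and 132 CPM after BDL and 34.4, 36.8, 39.1 and 34.8 CPM after sham. BDL library 3 lay below every one of those sham livers. The rise (log2 1.75 ± 0.57, adjusted p = 0.0364 in edgeR) was lost without any 1 of the KO-labelled sham libraries or without BDL library 2 (log2 0.85 to 1.78, adjusted p 0.0742 to 0.19), and with the replicate number as a block (adjusted p = 0.0759). Fabp5 spread from 10.8 to 115 CPM in KO-labelled BDL and from 30.7 to 191 CPM in KO-labelled sham livers, and did not pass in either arm (edgeR, KO-labelled log2 -0.33 ± 0.61, adjusted p = 0.708; WT-labelled log2 -0.58 ± 0.61, adjusted p = 0.498).

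In the liver table of the inhibitor experiment more members passed in the vehicle arm, and the difference between arms itself, given below, called none. In limma 1 of 7 members passed in UNC569 livers (background 8.56% of 12986 genes) and 6 in DMSO livers (background 13.4%). Trem2 was at 3.62, 2.86, 1.10 and 1.22 FPKM in UNC569 BDL livers and 0, 3.30 and 0 FPKM in UNC569 sham livers, with 1 sham library inside the BDL range (log2 0.89 ± 0.64, adjusted p = 0.446). In DMSO livers it was at 2.77 (lowest), 11.8 (median) and 23.6 (highest) FPKM after BDL and 0.248, 0.653 and 0 FPKM after sham, without overlap, and rose (log2 3.02 ± 0.59, adjusted p = 0.00361). Gpnmb was listed at 0 in all 6 sham livers. It was at 2.42, 1.52, 0.191 and 0.686 FPKM in UNC569 BDL livers (adjusted p = 0.287, and 0.0206 with a pseudocount of 0.1) and 1.03 (lowest), 7.40 (median) and 15.4 (highest) FPKM in DMSO BDL livers (adjusted p = 0.00235), so no fold is given.

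Lgals3 was the member that passed in both arms. It was at 18.5, 19.2, 14.996 and 7.26 FPKM in UNC569 BDL and 3.15, 7.17 and 3.15 FPKM in UNC569 sham livers (limma, log2 1.54 ± 0.45, adjusted p = 0.0432). That call was lost on leaving out UNC569 BDL library 0, 1 or 2, DMSO BDL library 0 or 1, UNC569 sham library 0 or 2, or DMSO sham library 0 or 2 (log2 1.38 to 1.54, adjusted p 0.0504 to 0.168). In DMSO livers Lgals3 was at 11.1 (lowest), 38.8 (median) and 54.9 (highest) FPKM after BDL and 5.65, 2.85 and 5.65 FPKM after sham, and rose (log2 2.54 ± 0.42, adjusted p = 0.00105). Tyrobp (log2 1.55 ± 0.39, adjusted p = 0.0163), Cd9 (log2 1.16 ± 0.25, adjusted p = 0.00704) and Lpl (log2 1.90 ± 0.49, adjusted p = 0.0177) also rose in DMSO livers, and each of these 3 calls was lost without DMSO sham library 1 (adjusted p 0.128, 0.0569 and 0.0982 in that order). That of Lpl was lost without DMSO sham library 0 too (adjusted p = 0.0589). Fabp5 did not pass in limma in UNC569 (log2 -0.91 ± 0.64, adjusted p = 0.432) or DMSO livers (log2 -0.49 ± 0.59, adjusted p = 0.63). Without UNC569 BDL library 2, where it was listed at 103 FPKM beside 10.2 to 15.2 FPKM in the other UNC569 BDL livers, Fabp5 was lower after BDL in the UNC569 arm (log2 -1.65 ± 0.47, adjusted p = 0.0347).

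In bleomycin lungs no member passed. Limma called 4 of 15935 genes in UNC569 lungs (0.0251%) and 11 in DMSO lungs (0.069%), with 1687 and 3122 genes at an unadjusted p under 0.05. The DMSO count depended on 1 library: 1911 genes passed without DMSO sham library 2. Trem2 was at 4.36, 33.8, 3.43, 2.26, 4.06 and 11.97 FPKM in UNC569 Bleo lungs and 4.73, 1.72 and 2.03 FPKM in UNC569 sham lungs. In DMSO lungs it was at 4.23, 18.3, 21.8, 12.9, 21.8 and 6.44 FPKM after Bleo and 2.75, 4.99 and 0.812 FPKM after sham. Libraries were numbered from 0 in the table: UNC569 Bleo library 1 and DMSO Bleo libraries 1, 2 and 4 were high, and the other Bleo lungs spread from 2.26 to 12.9 FPKM, so that Bleo and sham groups overlapped in both arms. The limma values for Trem2 were log2 1.05 ± 0.65, adjusted p = 0.582 in UNC569 and log2 1.95 ± 0.65, adjusted p = 0.135 in DMSO lungs.

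Gpnmb picked out the same lungs, at 3.02, 28.5, 2.31, 2.38, 2.82 and 7.24 FPKM in UNC569 Bleo lungs and 1.90, 19.9, 16.1, 6.18, 20.3 and 3.80 FPKM in DMSO Bleo lungs, beside 1.85 to 2.70 FPKM in UNC569 sham and 1.34 to 2.42 FPKM in DMSO sham lungs. Lgals3, which alveolar epithelium and macrophages both carry, was at 89.3, 209, 101, 82.5, 103 and 123 FPKM in UNC569 Bleo and 96.6, 171, 148, 137, 206 and 104 FPKM in DMSO Bleo lungs, and at 84.01 to 102 FPKM in UNC569 sham and 74.3 to 100.1 FPKM in DMSO sham lungs. The pan-macrophage sum moved with both: it was 4997, 9445, 4937, 5641, 4735 and 6837 FPKM in UNC569 Bleo and 5003, 8270.1, 7102, 6469, 7256 and 5090.0 FPKM in DMSO Bleo lungs, in the order of library number. Cd9 was at 237 to 262 FPKM in UNC569 Bleo and 224 to 328 FPKM in DMSO Bleo lungs, beside 202 to 261 FPKM in the sham lungs of both arms.

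Lpl in sham lungs stood with markers of heart muscle. It was at 27.98, 236 and 45.1 FPKM in UNC569 sham lungs, whose cardiac muscle marker sums were 117, 2987 and 111 FPKM. It was at 149, 139 and 29.4 FPKM in DMSO sham lungs, with cardiac muscle sums of 2710.2, 2752 and 77.5 FPKM. The 3 sham lungs with the most Lpl were those with the 3 highest sums, and the part of heart tissue in the Lpl levels was not tested. With that sum as a covariate, an alternative chosen after seeing the data, the DMSO difference between Bleo and sham lungs was log2 0.65 ± 0.65, against -0.20 ± 0.65 without it, and neither passed the threshold. In Bleo lungs Lpl was at 35.8 to 127 FPKM with UNC569 and 30.4 to 145 FPKM with DMSO. The cardiac muscle sums of the Bleo lungs are not given here.

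**Figure D4:**
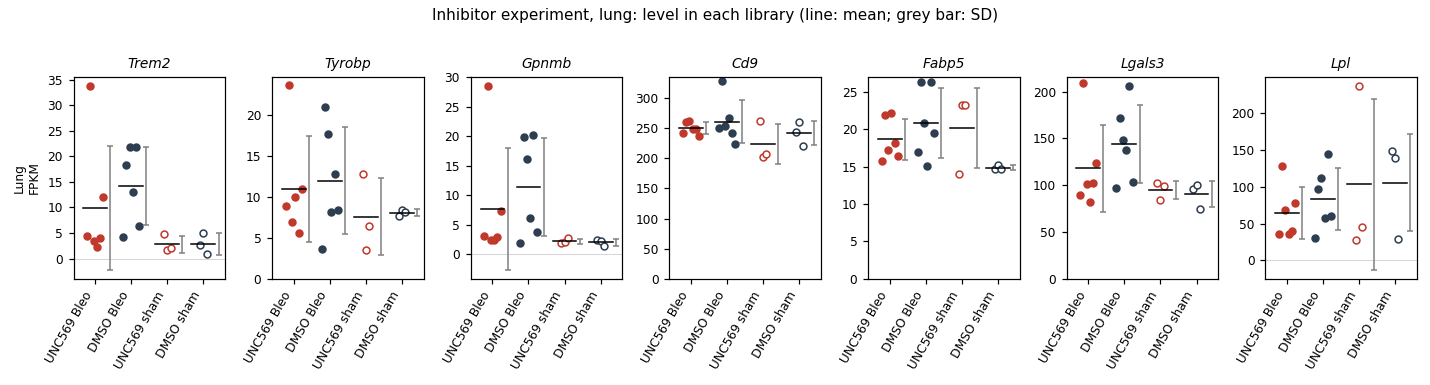
Level of each gene in every lung library (FPKM, linear axes that differ between panels), with UNC569 Bleo, DMSO Bleo, UNC569 sham and DMSO sham libraries from left to right, lines at the means and bars for the SD. UNC569 Bleo library 1 has the highest Trem2, Tyrobp, Gpnmb and Lgals3 of all lungs, and the remaining UNC569 Bleo libraries lie lower.

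Between genotypes after injury, no member passed the threshold in either organ. In UUO kidneys edgeR called 0 of 16395 genes (0%), with 1902 at an unadjusted p under 0.05, and DESeq2 called 7 genes and none of the members. Trem2 differed by log2 0.02 ± 0.54 and Tyrobp by log2 -0.14 ± 0.36 between KO-labelled and WT-labelled UUO kidneys. Lpl was higher in all 4 KO-labelled UUO kidneys than in any of the 3 WT-labelled ones (log2 0.60 ± 0.27, adjusted p = 0.43 in edgeR), a separation that did not pass the adjustment. With all 16 kidney libraries the same comparison gave log2 -1.08 ± 0.72.

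In BDL livers 4.39% of genes passed between KO-labelled and WT-labelled libraries in edgeR, and all 7 members missed the threshold. The KO-labelled BDL libraries 1, 3 and 4 had 2.03, 3.28 and 3.71 CPM of Trem2 and library 2 had 19.95 CPM, beside 7.997 to 20.9 CPM in WT-labelled BDL livers (log2 -0.93 ± 0.56, adjusted p = 0.294). The same library was highest of its group in Tyrobp, Gpnmb, Lgals3 and Lpl. Without it, 5 of 7 members were lower in KO-labelled BDL livers in edgeR. Beside them 1921 genes were called in either direction, where 13492 genes were tested with all libraries. The 5 were Trem2 (log2 -2.20 ± 0.40, adjusted p = 0.00802), Tyrobp (log2 -1.42 ± 0.40, adjusted p = 0.0309), Gpnmb (log2 -2.28 ± 0.47, adjusted p = 0.0117), Lgals3 (log2 -1.82 ± 0.37, adjusted p = 0.011) and Lpl (log2 -2.12 ± 0.51, adjusted p = 0.0181). That library was singled out by its own levels of these genes, so these p-values are no independent evidence of a difference. Nothing in the labels sets library 2 apart, and libraries 1 and 3 of that group are among those that the submitters' labels mark for bad read files. Without the marked liver libraries edgeR called no gene, and with 1 library left out at a time its count of genes ranged from 0 to 1921. DESeq2 called 1908 genes with all libraries.

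Markers of several cell types moved with that difference. The pan-macrophage sums were 181, 1015, 3640.2 and 357 CPM in KO-labelled BDL livers 1 to 4 and 1101, 1011, 2583 and 1118 CPM in WT-labelled BDL livers 1 to 4. The high sum of KO-labelled library 3 was nearly all Cd14, at 3330.0 CPM. Without Cd14 the sums were 91.8, 927, 310.1 and 343 CPM in the KO-labelled and 1008, 916, 2364 and 848 CPM in the WT-labelled BDL livers. Of the 13 genes of the list, 12 had a fitted change below 0 between KO-labelled and WT-labelled BDL livers, and 1 of them, Mpeg1, passed (edgeR, log2 -1.81 ± 0.49, adjusted p = 0.0494). The Kupffer cell sums were 23.5 to 447 CPM in KO-labelled and 407 to 986 CPM in WT-labelled BDL livers. The cholangiocyte sums, over 8 genes that include Spp1, were 37.6 to 419 CPM in KO-labelled and 879.8 to 3176 CPM in WT-labelled BDL livers. The fibroblast sums were 184 to 466.4 CPM in KO-labelled and 573 to 2559 CPM in WT-labelled BDL livers, with no overlap between genotypes in either list. Their part in the members' levels was not tested. Set against the sum without Cd14, Trem2 was 0.789% to 2.10% in the KO-labelled and 0.709% to 2.14% in the WT-labelled BDL livers, with overlap.

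**Figure D5:**
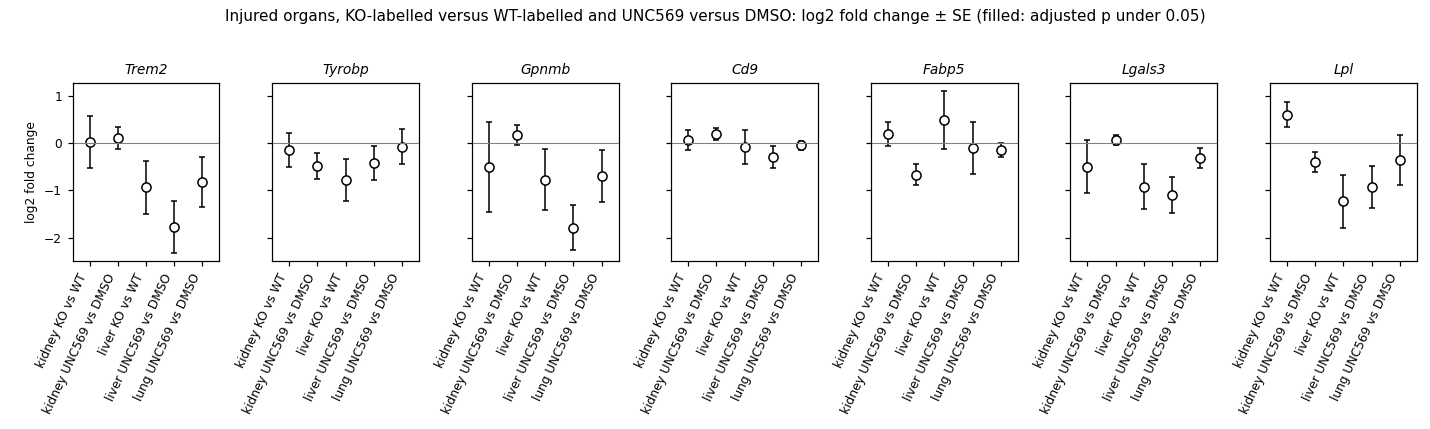
log2 fold change of KO-labelled over WT-labelled and of UNC569 over DMSO libraries after injury for the 7 genes, with the standard error as bars. No gene passed an adjusted p of 0.05; in both liver comparisons Trem2, Tyrobp, Gpnmb, Lgals3 and Lpl lie below 0.

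Between UNC569 and DMSO after injury no member passed either. In UUO kidneys limma called 1.3% of genes, and among the members the smallest p was that of Fabp5, at 0.805 (lowest), 2.33 (median) and 3.83 (highest) FPKM in UNC569 UUO and 3.52, 3.79, 4.15 and 4.52 FPKM in DMSO UUO kidneys (log2 -0.67 ± 0.23, adjusted p = 0.137). In BDL livers limma called 0.316% of genes. Trem2 was at 3.62, 2.86, 1.10 and 1.22 FPKM in UNC569 and 2.77 (lowest), 11.8 (median) and 23.6 (highest) FPKM in DMSO BDL livers, with overlap (log2 -1.77 ± 0.54, adjusted p = 0.211). Gpnmb was at 2.42, 1.52, 0.191 and 0.686 FPKM in UNC569 and 1.03 (lowest), 7.40 (median) and 15.4 (highest) FPKM in DMSO BDL livers (log2 -1.79 ± 0.47, adjusted p = 0.133). It passed without DMSO BDL library 3 (log2 -2.15 ± 0.38, adjusted p = 0.0217). Lgals3 (log2 -1.09 ± 0.38, adjusted p = 0.288) and Lpl (log2 -0.94 ± 0.45, adjusted p = 0.45) had the same sign. The pan-macrophage sum had a median of 441 FPKM in UNC569 and 1043 FPKM in DMSO BDL livers, and the cholangiocyte sum one of 94.1 FPKM in UNC569 and 318 FPKM in DMSO BDL livers. In Bleo lungs limma called 0 genes between UNC569 and DMSO, with 843 at an unadjusted p under 0.05, and Trem2 differed by log2 -0.83 ± 0.53.

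Between arms in sham tissue, 1 member passed in 1 table, Tyrobp in the kidney inhibitor table. In sham kidneys Fabp5 was at 3.80, 3.98, 3.27 and 5.49 CPM in KO-labelled and 8.32, 12.7 and 7.25 CPM in WT-labelled libraries, with no overlap. It missed the threshold in edgeR (log2 -1.17 ± 0.27, adjusted p = 0.196; background 0.0061%), and passed in DESeq2 (adjusted p = 0.00822) and in edgeR without WT-labelled sham library 4 (adjusted p = 0.00747). The difference of the UUO response of Fabp5, KO-labelled minus WT-labelled, was log2 1.36 ± 0.38, adjusted p = 0.0946 in edgeR and passed in DESeq2 (adjusted p = 0.0164) and in edgeR without WT-labelled sham library 4 (log2 1.42 ± 0.36, adjusted p = 0.0113). Without WT-labelled sham library 4, edgeR called 4002 genes between sham genotypes, against 1 with it, so this count rests on that library. In UNC569 sham kidneys Tyrobp was at 1.81, 0.785 and 0 FPKM, beside 2.25, 3.06 and 2.70 FPKM in DMSO sham kidneys, and was lower in limma (log2 -1.09 ± 0.36, adjusted p = 0.042; background 19.3%). That call was lost without UNC569 sham library 1 or 2, any 1 of the DMSO sham libraries, or DMSO UUO library 1 (log2 -1.18 to -0.71, adjusted p 0.051 to 0.206). The test of the difference between responses called no member in any of the 5 tables, with a background of 19.6% in the kidney inhibitor table and 0% in the other 4. In the kidney inhibitor table this difference, UNC569 minus DMSO, was log2 -0.91 ± 0.34, adjusted p = 0.0677 for Lpl, which passed without DMSO sham library 0 or UNC569 UUO library 0 or 6 (adjusted p 0.036 to 0.0437). It was log2 -0.9995 ± 0.37, adjusted p = 0.0689 for Fabp5, which passed without UNC569 sham library 2 or UNC569 UUO library 5 (adjusted p 0.0456 and 0.0336). At an unadjusted p under 0.05 the other 4 tables had 4466 (kidney knockout), 1952 (liver knockout), 610 (liver inhibitor) and 1893 genes (lung inhibitor), and DESeq2 called 1651 in the kidney and 146 in the liver knockout table. Between arms the sham livers and lungs had no member past the threshold and no gene in edgeR or limma, with 70, 241 and 1206 genes at an unadjusted p under 0.05 in the liver knockout, liver inhibitor and lung tables and 0 by DESeq2 in the first.

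Most genes that work beside TREM2 and DAP12 were higher after UUO as well. The list of 16 signalling partners and related receptors gave 13 higher and 0 lower of 15 tested (median log2 3.12) in KO-labelled and 14 higher and 0 lower of 15 tested (median log2 3.00) in WT-labelled UUO kidneys, beside the all-gene medians given above and 59.1% and 39.3% of all genes called in the same arms. Syk, the kinase that DAP12 recruits, rose by log2 4.05 ± 0.32 in KO-labelled and 3.52 ± 0.36 in WT-labelled kidneys. Inpp5d, the phosphatase SHIP1 that restrains the pathway, rose by log2 2.53 ± 0.19 and 2.81 ± 0.23 in the same arms. Hcst, beside Tyrobp on chromosome 7, rose by log2 3.53 ± 0.69 in KO-labelled and 3.00 ± 0.81 in WT-labelled kidneys. In liver the same list gave 4 higher and 0 lower of 14 tested (median log2 0.67) in KO-labelled and 11 higher and 1 lower of 14 tested (median log2 1.93) in WT-labelled livers after BDL, where 25.1% and 29.1% of all genes were called. The gene lower in WT-labelled BDL livers was Apoe, which encodes a ligand of TREM2 (log2 -1.12 ± 0.33), and which rose in UUO kidneys (log2 1.85 ± 0.36 in KO-labelled and 3.98 ± 0.46 in WT-labelled). Between KO-labelled and WT-labelled BDL livers 2 of the 14 partners tested were lower, Inpp5d (log2 -1.30 ± 0.34) and Adam10 (log2 -0.68 ± 0.19), a protease that sheds TREM2 from the cell surface, beside 4.39% of all genes called. Both calls were lost without the marked liver libraries (adjusted p 0.257 and 0.254) and with the replicate block (adjusted p 0.053 and 0.0714). With 1 library left out at a time, Inpp5d was lost in 14 and Adam10 in 13 of 16 cases. Inpp5d remained without WT-labelled BDL library 1 or KO-labelled BDL library 2, and Adam10 also without KO-labelled BDL library 4. Both were lost with no filter on low counts (adjusted p 0.053 and 0.0721).

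A list of 28 further genes of lipid-associated macrophages behaved less uniformly. After UUO it gave 13 higher and 5 lower of 27 tested (median log2 0.81) in KO-labelled and 14 higher and 3 lower of 27 tested (median log2 0.72) in WT-labelled kidneys, beside 59.1% and 39.3% of all genes called, so the KO-labelled share was near the background. Spp1, which encodes osteopontin, rose by log2 4.25 ± 0.39 in KO-labelled and 3.70 ± 0.44 in WT-labelled kidneys. Mmp12, a macrophage elastase, rose by log2 6.16 ± 0.77 and 3.99 ± 0.81 in the same arms. Cd36, a fatty acid receptor, fell together with Lpl in kidney (log2 -2.06 ± 0.28 in KO-labelled and -3.13 ± 0.34 in WT-labelled), and rose with it in BDL livers (log2 2.55 ± 0.32 in KO-labelled and 2.36 ± 0.32 in WT-labelled). Lipa, the lysosomal acid lipase, fell in UUO kidneys too (log2 -1.11 ± 0.25 in KO-labelled and -1.32 ± 0.29 in WT-labelled). In BDL livers the list gave 12 higher and 1 lower of 27 tested (median log2 0.995) in KO-labelled and 19 higher and 1 lower of 27 tested (median log2 1.47) in WT-labelled livers, beside 25.1% and 29.1% of all genes. Cd63, a lysosomal tetraspanin, rose by log2 4.20 ± 0.60 in KO-labelled and 4.16 ± 0.60 in WT-labelled BDL livers. Atp6v0d2, a subunit of the lysosomal proton pump, rose by log2 3.97 ± 0.85 and 4.25 ± 0.85 in the same arms.

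In the inhibitor experiment the partner list gave 9 higher and 0 lower of 12 tested (median log2 1.45) in UNC569 and 11 higher and 0 lower of 12 tested (median log2 1.65) in DMSO kidneys after UUO, and 1 higher and 0 lower of 11 tested (median log2 0.43) in UNC569 and 6 higher and 0 lower of 11 tested (median log2 0.78) in DMSO livers after BDL. The further genes gave 13 higher and 5 lower of 27 tested (median log2 0.31) in UNC569 and 16 higher and 3 lower of 27 tested (median log2 0.73) in DMSO kidneys, and 4 higher and 0 lower of 25 tested (median log2 0.36) in UNC569 and 12 higher and 0 lower of 25 tested (median log2 0.88) in DMSO livers. The shares of all genes called were 62.1% in UNC569 and 55.5% in DMSO kidneys, and 8.56% in UNC569 and 13.4% in DMSO livers. No gene of either list passed after Bleo. Spp1 (log2 -3.12 ± 0.64, adjusted p = 0.037), Soat1 (log2 -1.59 ± 0.34, adjusted p = 0.0384) and, in the inhibitor experiment, Clec7a (log2 -2.02 ± 0.37, adjusted p = 0.0371) were the further genes that were lower in KO-labelled than WT-labelled or in UNC569 than DMSO BDL livers. Spp1 and Soat1 were lost without the marked liver libraries (adjusted p 0.222 and 0.238) and in 13 of 16 cases with 1 library left out. The exceptions were WT-labelled BDL library 1 and KO-labelled BDL libraries 2 and 4. Clec7a was lost in 9 of 16 cases (UNC569 BDL library 0, 1 or 3, DMSO BDL library 0, 1, 2, 4 or 5, or UNC569 sham library 0), with a pseudocount of 0.1 (adjusted p = 0.0653) and with no filter (adjusted p = 0.0886). Related gene families were counted too. After UUO in WT-labelled kidneys, galectins gave 2 higher and 0 lower of 6 tested (median log2 0.73). Tetraspanins gave 7 higher and 0 lower of 11 tested (median log2 0.68). Fatty acid binding proteins and lipases gave 1 higher and 3 lower of 15 tested (median log2 -0.35). In that arm 39.3% of all genes were called, and nothing is read from these counts. The family counts of other arms are not given here.

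Correlations between members differed by pair and by table. Those of log levels within each of the 5 tables, given as a description over 81 libraries that share injury, depth and cell makeup within a table, averaged 0.923 for Trem2 with Gpnmb and 0.916 for Trem2 with Lgals3. Lower values among Trem2, Tyrobp, Gpnmb, Cd9 and Lgals3 were 0.46 for Gpnmb with Cd9 and 0.55 for Trem2 with Cd9, both in lung, and 0.56 for Tyrobp with Gpnmb in the liver inhibitor table. For Trem2 with Lpl the r was -0.93 in the kidney knockout table, -0.97 in the kidney inhibitor table and 0.87 in the liver knockout table. For Trem2 with Fabp5 it ranged from -0.25 in the liver inhibitor table to 0.80 in the kidney knockout table. Among 10831 genes measured in all 5 tables, the pattern of Trem2 was most like those of Ctss (mean r 0.920) and Laptm5 (0.918), and that of Tyrobp most like those of Cyth4 (0.887) and Ccl6 (0.884). Gpnmb was nearest to Sh3pxd2b (0.912) and Ccr1 (0.893), and Lgals3 to Sh3pxd2b (0.900) and Cd68 (0.898). Cd9 was nearest to S100a11 (0.897) and Anxa2 (0.869), and Lpl to Oxct1 (0.872) and Tspan3 (0.858).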

How the data were processed

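Whole-tissue RNA from mouse kidney, liver and lung was sequenced with the TruSeq RNA v2 kit on a HiSeq 2000, per the labels' protocols, while the submitters' processing notes list FastQC, Trim Galore, STAR and edgeR, and as genome builds mm10 and hg38, with no version or order. The authors deposited, for the knockout experiment, 1 gene count file per library, of which the column that ignores strand was used. For the inhibitor experiment the authors deposited FPKM tables of 38277 genes whose columns name the group and a number from 0 but not the sample, and for kidney UNC569 UUO and liver UNC569 BDL they hold fewer columns than the labels list samples. How FPKM was computed is not given in the sources used here.

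Counts were tested with edgeR 4.0.16 (R 4.3.3; quasi-likelihood F test, filterByExpr, TMM normalization, 1 term per group, all groups of an organ sharing the estimate of spread). FPKM values were tested with limma 3.58.1 (trend) on log2(FPKM + 1), for genes with at least 1 FPKM in at least 3 libraries. The Benjamini-Hochberg adjustment ran over all genes tested in a comparison, with a threshold of 0.05. The CPM printed for the 7 genes are TMM-normalised; marker sums, Mertk, the left-out libraries and shares of the pan-macrophage sum use CPM without TMM. All 7 genes passed the filters in all 5 tables. Reads outside genes, unmapped reads included, made up 20.8% to 67.6% of a kidney and 20.9% to 29.3% of a liver library and stayed out of library sizes. A higher total leaves less counting error at low counts. The fits were checked on simulated counts and values with known changes.

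The alternatives were DESeq2 1.42.0, RLE normalization, no filter, the replicate number as a block, each library left out in turn, all 16 kidney libraries, the liver without libraries marked for a bad read file, a pseudocount of 0.1 and median-of-ratios scaling; a cardiac muscle covariate in lung was added after seeing the data. No 2 libraries of a group were near identical. The genes named are the 7 members in every comparison, the 2 genes most like each by mean r (those of Fabp5 are not reported here), and genes of 2 companion lists past the threshold. The members and the lists were chosen with earlier results of these data known, so no list is independent evidence of its direction.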

Additional observations from a re-analysis of the deposited data

Results flagged for a closer look

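The 7 genes were examined in 12 groups of 4 to 10 libraries, 84 combinations in all, and in 9 of them, which fall in 5 groups, 1 library lay far from the others. Chance gives about 1 in 20 for independent combinations of normally distributed values. These are not independent, since 4 of the 9 come from 1 lung library. The levels were compared on a linear scale, and all 9 flagged values were high ones, so the chance rate here is not known. Of KO-labelled BDL livers, library 2 had 19.95 CPM of Trem2 (next 3.71) and 76.4 CPM of Gpnmb (next 13.7). Of WT-labelled BDL livers, library 3 had 47.3 CPM of Lgals3 (next 34.1). In the inhibitor experiment, DMSO UUO kidney library 3 had 54.8 FPKM of Lpl (next 34.1), and UNC569 BDL liver library 2 had 102.6 FPKM of Fabp5 (next 15.2). UNC569 Bleo lung library 1 stood apart in 4 members, with 33.8 FPKM of Trem2 (next 12.0), 23.7 FPKM of Tyrobp (next 11.0), 28.5 FPKM of Gpnmb (next 7.24) and 209 FPKM of Lgals3 (next 123).

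Lpl moved in opposite directions in the 2 injured organs, and the difference between organs was not tested. Its log2 change over sham was -2.88 in WT-labelled UUO kidneys and 3.03 in WT-labelled BDL livers, -4.18 in UNC569 UUO kidneys and 1.39 in UNC569 BDL livers, and -3.27 in DMSO UUO kidneys and 1.90 in DMSO BDL livers. The UNC569 liver value did not pass the threshold.

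The 2 kidney libraries left out held signal above the highest WT-labelled sham kidney used (CPM without TMM). WT-labelled UUO library 1 had 14.7 CPM of Trem2 (sham at most 0.554), 26.5 CPM of Tyrobp (5.22), 64.3 CPM of Gpnmb (5.82), 160.4 CPM of Cd9 (119), 166 CPM of Fabp5 (10.9) and 2818 CPM of Lpl (2067). Sham library 1 had 42.2 CPM of Fabp5.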

How the results depend on the processing

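Of 2259 values recomputed under the alternatives, for 112 of 175 tests of the 7 genes, 2156 kept direction and side of the threshold, 44 lost it, 23 gained it and 36 changed sign, none of these with an adjusted p under 0.05. The causes were not tested. Of the 2259 values, 1814 came from leaving out 1 library. Some of those libraries lay outside the groups compared, where the limma log2 change could not move. Lgals3 in UNC569 BDL over sham livers, for example, stayed at log2 1.54 without DMSO libraries. The share of values kept is therefore no measure of robustness to the processing. In KO-labelled against WT-labelled UUO kidneys, Trem2 was log2 -0.028 with no filter, Tyrobp 0.0052 with the replicate block, and Fabp5 -1.75 and Lpl -1.08 with all 16 libraries. With the cardiac covariate in lung, Lpl was 0.65 (Bleo over sham, DMSO) and Tyrobp 0.039 (UNC569 over DMSO, Bleo).

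Members past the threshold, against the report's count: DESeq2 gave 1 (Fabp5) for KO-labelled against WT-labelled sham kidneys and 1 for the difference of their UUO responses, against 0. Between UNC569 and DMSO sham kidneys there were 0 with no filter and 2 with median-of-ratios scaling, against 1, and that scaling gave 1 for the difference of responses, against 0. With all 16 kidney libraries 5 passed in KO-labelled (Fabp5 and Lgals3 lost) and 4 in WT-labelled UUO kidneys (Lpl lost), against 7 and 5. For UNC569 BDL over sham livers there were 2 with a pseudocount of 0.1 and 0 with no filter or with median-of-ratios scaling, against 1.

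With each library left out in turn, members past the threshold ranged from 0 to 1 between sham genotypes in kidney, in the difference of their UUO responses, between UNC569 and DMSO sham kidneys, in the difference of those responses, in UNC569 BDL over sham livers and between UNC569 and DMSO BDL livers, from 0 to 5 between KO-labelled and WT-labelled BDL livers, and from 3 to 6 in DMSO BDL over sham livers. Values that changed sign ranged as follows. Between KO-labelled and WT-labelled UUO kidneys, Trem2 was -0.19 to 0.34, Tyrobp -0.34 to 0.041, Gpnmb -0.99 to 1.20 and Cd9 -0.051 to 0.27. In liver, Fabp5 was -0.69 to 0.37 (KO-labelled BDL over sham) and Cd9 -0.79 to 0.18 (KO-labelled over WT-labelled BDL). In inhibitor kidneys, Fabp5 was -0.40 to 0.038 (UNC569 UUO over sham), and between UNC569 and DMSO UUO Trem2 was -0.062 to 0.26 and Lgals3 -0.0072 to 0.15. Between UNC569 and DMSO BDL livers Fabp5 was -0.84 to 0.23. In lung, Bleo over sham, Lpl was -0.84 to 0.67 in UNC569 and -0.95 to 0.20 in DMSO and Fabp5 -0.32 to 0.030 in UNC569; between UNC569 and DMSO Bleo, Tyrobp was -0.34 to 0.11 and Cd9 -0.095 to 0.015.

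No pairing of libraries by the replicate numbers of the labels was seen (r from -0.290 to 0.166 over 19 same-numbered pairs in kidney, 4 of them above 0.1, and -0.296 to 0.267 over 24 in liver, 5 of them above 0.1). Differently numbered liver pairs ranged from -0.481 to 0.428. With so few libraries per group, these correlations cannot exclude that same-numbered libraries shared an origin or handling. With the replicate block Gpnmb in WT-labelled UUO kidneys was 4.34 (adjusted p = 0.0592), leaving 4 members past there, and 4 passed in KO-labelled BDL livers. The number of genes called moved more than that of members: DESeq2 called 315 genes between sham kidneys (edgeR 1), and between KO-labelled and WT-labelled BDL livers edgeR called 592, 322 with no filter and 239 with the block. For KO-labelled BDL over sham livers it called 3392, and 1724 without the marked libraries. Limma called 199 genes between UNC569 and DMSO UUO kidneys (46 with a pseudocount of 0.1), 41 between UNC569 and DMSO BDL livers (15 with that pseudocount, 1 with no filter), and 11 in DMSO Bleo lungs (25 with that pseudocount, 19 with median-of-ratios scaling, 0 with the covariate, 1911 without DMSO sham library 2). Median-of-ratios scaling moved the median of all genes in the kidney inhibitor table by 0.151 (UNC569 UUO over sham), -0.165 (UNC569 over DMSO, sham) and 0.186 (the difference), and in the liver inhibitor table by 0.124 (DMSO BDL over sham). The difference of UUO responses between genotypes gave 5127 genes without WT-labelled sham library 4, against 0. Low counts of Trem2 and Gpnmb in sham tissue limit the precision of their fitted changes.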
